A study of Oryctolagus cuniculus with 4 samples.

Results

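Pericytes are contractile cells on the wall of capillaries and small venules, set inside the basement membrane that they share with the endothelium. They are recruited through the growth factor receptor PDGFRB, respond to vessel tone signals through receptors, potassium channels and cyclic GMP, and grade into the smooth muscle cells of larger vessels. Around injured tissue they are known for stabilizing new vessels, laying down matrix and recruiting leukocytes. The pericyte-like cells described here came from the bladder mucosa of adult New Zealand rabbits, profiled by droplet-based single-cell RNA sequencing with 1 library for each of 4 samples. Injury_1 and Injury_2 were taken 10 days after a focal resection of the mucosa, when new urothelium had just closed the wound. Normal_1 and Normal_2 came from bladders under homeostasis. In each, a piece of mucosa was minced and digested with collagenase II, so cell types entered only as far as digestion released them.

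A cell was taken as pericyte-like when it held at least 500 UMIs (unique molecular identifiers, each 1 counted transcript) and 200 genes, had at most 15% of its UMIs in 13 mitochondrial genes, and held transcripts of at least 3 of the 6 genes RGS5, RGS4, HIGD1B, ABCC9, COX4I2 and IBSP. It also had to lack PTPRC (leukocytes) and PECAM1 (endothelium) and to keep DCN plus LUM (fibroblasts) under 0.5% of its UMIs. This rule took 1592 of 21945 cells within the quality limits, 468 of 6081 in Injury_1, 483 of 5529 in Injury_2, 349 of 4308 in Normal_1 and 292 of 6027 in Normal_2. The genes of the rule chose the cells, so their values are a description and were not tested. Levels are given as counts per 1000000 UMIs (CPM) after summing the UMIs of a cell group in a library, and 4 values in a row always follow the order Injury_1, Injury_2, Normal_1, Normal_2.

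The tissue label reads urothelium, yet the libraries also held stromal, endothelial and immune cells. Library totals ran from 28745017 UMIs in Normal_1 to 47881609 in Normal_2, and pericyte-like cells carried a median of 3503 to 4714.5 UMIs. Pairs of libraries shared 8 to 13 cell barcodes, of which 1 was shared among pericyte-like cells. Mitochondrial transcripts made up a median of 8.79% and 9.53% of UMIs in the pericyte-like cells of the injured rabbits and 11.8% and 12.6% in those of the normal rabbits.

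RGS5, a regulator of G protein signalling, stood at 1270.4, 1410.3, 1718 and 1276 CPM in the pericyte-like cells and at 8.92 to 10.6 CPM in fibroblasts. HIGD1B, a gene typical of mural cells, stood at 712, 777, 740.1 and 835 CPM. ABCC9, a subunit of ATP-sensitive potassium channels, stood at 367, 375, 389 and 447 CPM. The libraries thus lay close together in all 3 genes. The bone sialoprotein gene IBSP came from fewer cells, since 16.7% and 20.5% of the injured and 40.4% and 40.1% of the normal rabbits' pericyte-like cells held a transcript of it. After each cell was thinned to 1000 UMIs these shares were 13.9%, 17.5%, 34.1% and 31.7%, with 3 to 10 shallower cells left out per library. Thinned shares for COX4I2 were 52.7%, 54.9%, 75.6% and 64.25%, also lower in both injured rabbits. Those for RGS4 were 72.2%, 67.9%, 70.6% and 77.4%, which overlapped. Thinned shares for RGS5 were 62.5% to 68.2%, against 0.29% to 1.23% in endothelial cells, which should lack it and had median depths such as 6480 UMIs against 4714 in Injury_1.

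**Figure D1:**
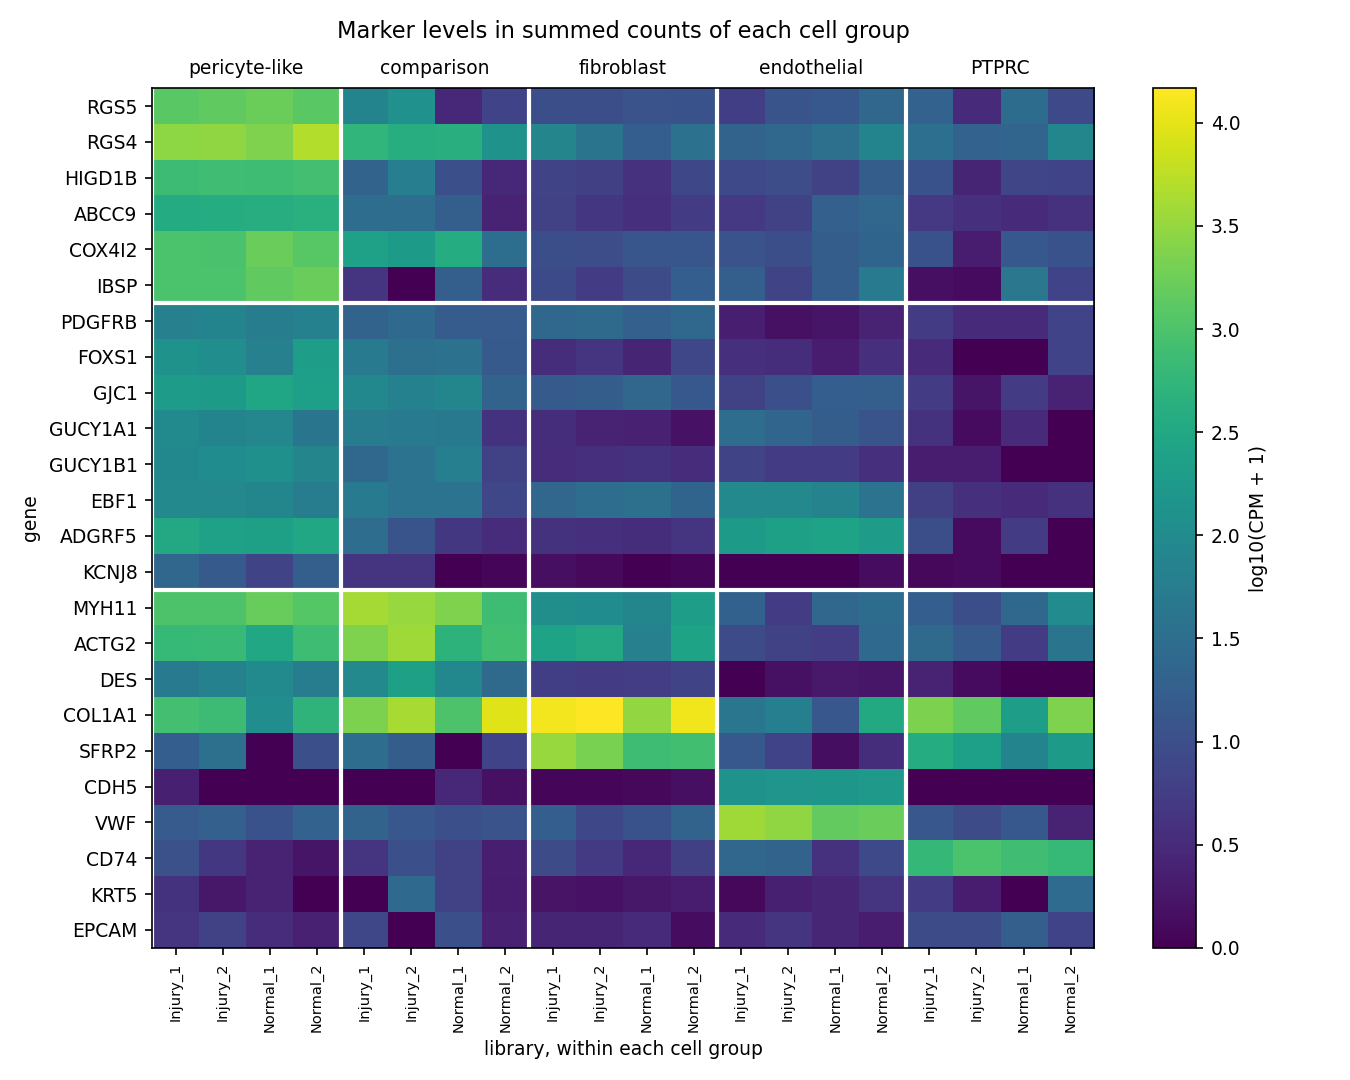
Marker gene levels in the summed counts of the cell groups, with genes in rows, libraries in columns and colour giving CPM on a log scale. RGS5 reads 1270.4 to 1718 CPM in pericyte-like cells and 8.92 to 10.6 CPM in fibroblasts, and the endothelial gene VWF reads 10.1 to 19.2 CPM in pericyte-like cells.

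Markers outside the rule fitted the name in part. Of 20 pericyte markers listed, 12 were in the annotation, and NOTCH3, CSPG4 and MCAM were not analysed here. PDGFRB read 64.9, 75.7, 58.3 and 66.8 CPM, against 18.3 to 26.7 CPM in fibroblasts and at most 1.59 CPM in endothelial cells. The forkhead factor FOXS1 read 139, 111, 64.5 and 208 CPM, and at most 6.77 CPM in fibroblasts. GJC1, a gap junction protein, read 195, 185, 277 and 226 CPM, against 13.2 to 22.7 CPM in fibroblasts. All 3 genes therefore stood above the fibroblasts in every library. KCNJ8, the pore of the channel that ABCC9 belongs to, was low at 22.5, 13.9, 6.22 and 17.0 CPM, although fibroblasts held at most 0.489 CPM. HEYL and TBX18 were near the floor, at no more than 7.10 and 2.33 CPM.

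Endothelial, immune and epithelial markers were low. Smooth muscle genes were not, with means over the 4 libraries of 4843 CPM for ACTA2 and 1193 CPM for MYH11. Summed endothelial markers (6 genes) read 26.9 to 54.4 CPM, with TEK at 0 in all 4 libraries and CDH5 at 0 in all but Injury_1. Summed immune markers (10 genes) read 61.4 and 24.8 CPM in the injured and 10.9 and 12.1 CPM in the normal rabbits. The 8 epithelial markers summed to 127 to 210.1 CPM, mostly KRT15 and KRT18. Fibroblast genes were higher: COL1A1 read 843, 710.0, 111 and 519 CPM, against 12511, 14698, 3160 and 12042 CPM in fibroblasts. It was lowest in Normal_1 in both cell groups, and the part of free fibroblast RNA in it was not tested.

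The threshold of 3 markers fell within a continuous range. Among cells that met every other condition, 211 held 2 markers and 313 held exactly 3. Just outside, RGS5 read 264, 288, 115 and 154 CPM and MYH11, smooth muscle myosin, 3084, 3873, 4086 and 3987 CPM. Just inside, RGS5 read 506, 586, 545 and 347 CPM and MYH11 2536, 2021, 3558 and 2966 CPM. The 248 cells with all 6 markers held 87.1 to 450.3 CPM of MYH11. A further 39 to 85 cells per library held at least 3 markers but were left out for PTPRC, PECAM1, DCN or LUM.

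Pericyte-like cells differed among themselves in how many smooth muscle genes they held. None of MYH11, ACTG2 and DES was detected in 572 cells, 1 of them in 404, and at least 2 in 616. The share with at least 2 was 36.3%, 38.3%, 40.4% and 41.1%, close in size but lower in both injured rabbits, and it was not tested. Those cells were deeper, with median UMIs of 3869 to 5709 against 3135 to 4567 in cells with none. The values that follow come from the cells that were split, and are given without a test.

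Cells with at least 2 of these genes held more of other contractile and calcium genes. ACTA2, smooth muscle actin, read 7488, 7779.5, 4226 and 13692 CPM in them, against 825, 992, 335 and 873 CPM in cells with none. MYOCD, a coactivator of smooth muscle genes, read 137, 146, 222 and 190.4 CPM against 17.8, 16.3, 12.2 and 2.14 CPM. The calcium store protein CASQ2 read 28.6, 27.1, 147 and 73.7 CPM against 0 in every library, and the small heat shock protein gene CRYAB 2050.0, 1002, 11508 and 6180.1 CPM against 71.4, 99.2, 1007 and 171 CPM. Direction was shared by all 4 libraries in each gene. SORBS2, RYR2, SLC8A1, SLIT3 and RERGL lay the same way in all 4. The chemokine gene CCL19 also leaned to these cells, at 715, 578, 19.1 and 279.5 CPM against 74.1, 66.7, 14.7 and 0 CPM.

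Cells with none of the 3 genes held more of several genes of pericytes, of the basement membrane and of secreted products. ABCC9 read 583, 647, 902 and 901 CPM in them, against 231, 202, 88.5 and 108 CPM in cells with at least 2. PDGFRB read 85.1, 132, 100.2 and 113 CPM against 48.3, 38.9, 36.4 and 33.8 CPM. AGTR1, the angiotensin II receptor, read 122, 166, 112 and 124 CPM against 32.6, 27.1, 20.8 and 27.6 CPM. Both receptor genes were thus higher in the cells with none in all 4 libraries. The lipocalin APOD read 1776, 2191, 5840.1 and 6218 CPM against 197, 209, 45.1 and 298 CPM. IBSP read 2375, 1915, 2672 and 3436 CPM against 249, 240.5, 666 and 229 CPM. The laminin chain LAMA2 (320 to 645 CPM against 69.4 to 140.1 CPM), the collagen IV chain COL4A1 and the scavenger receptor COLEC12 shared that direction in all 4 libraries. ABCB1, an efflux pump known from vessel barriers, read 37.1, 35.5, 159 and 267 CPM against 5.92, 9.04, 5.20 and 7.68 CPM.

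**Figure D2:**
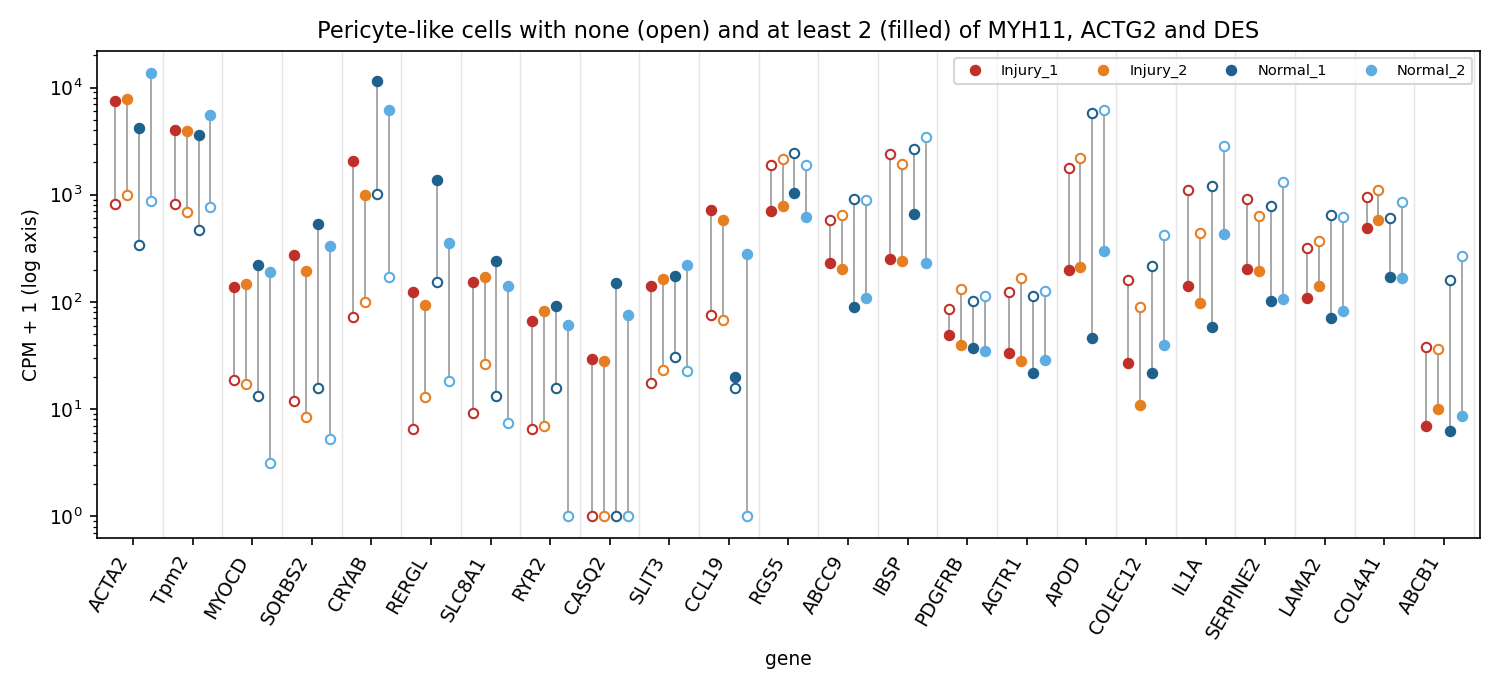
CPM on a log axis for genes in pericyte-like cells with none and with at least 2 of MYH11, ACTG2 and DES, shown as CPM + 1 with open and filled points joined per library. ACTA2 is higher in cells with at least 2 (4226 to 13692 CPM against 335 to 992 CPM), and ABCC9, APOD and IBSP are higher in cells with none, in each of the 4 libraries.

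The number of pericyte-like cells after injury was compared on 2 scales. They made up 7.70% of kept cells in Injury_1 (95% Wilson interval 7.05 to 8.39), 8.74% in Injury_2 (8.02 to 9.51), 8.10% in Normal_1 (7.32 to 8.95) and 4.84% in Normal_2 (4.33 to 5.42), with intervals that cover counting error only. The groups overlapped, with means of 8.22% ± 0.735 and 6.47% ± 2.30 (SD, n = 2 each, two-sided exact permutation p = 0.667). The difference of 1.74 percentage points was 0.115 without Normal_2 and 3.37 without Normal_1. Per 100 endothelial cells there were 40.8 and 59.1 pericyte-like cells in the injured and 21.6 and 18.7 in the normal rabbits. These did not overlap (49.98 ± 12.9 against 20.2 ± 2.06, SD, n = 2 each, exact permutation p = 0.333, the smallest that 2 against 2 can give). Endothelial cells themselves numbered 1146 and 817 in the injured and 1613 and 1560 in the normal rabbits, and more pericyte-like cells and fewer endothelial cells cannot be told apart in this ratio.

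Both scales moved with the mitochondrial limit. It removed 61, 49, 206 and 259 cells that otherwise met the rule, or 11.5%, 9.21%, 37.1% and 47.0% of them, against 10.1%, 9.30%, 23.4% and 12.2% of all cells. Without a limit the shares were 7.82%, 8.73%, 9.86% and 8.03%, and the injured mean lay below the normal one, by -0.672 percentage points. Per 100 endothelial cells the numbers without a limit were 44.0, 61.9, 31.1 and 32.8, again without overlap. With a limit of 10%, 311 and 279 pericyte-like cells were left in the injured and 79 and 49 in the normal rabbits.

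**Figure D3:**
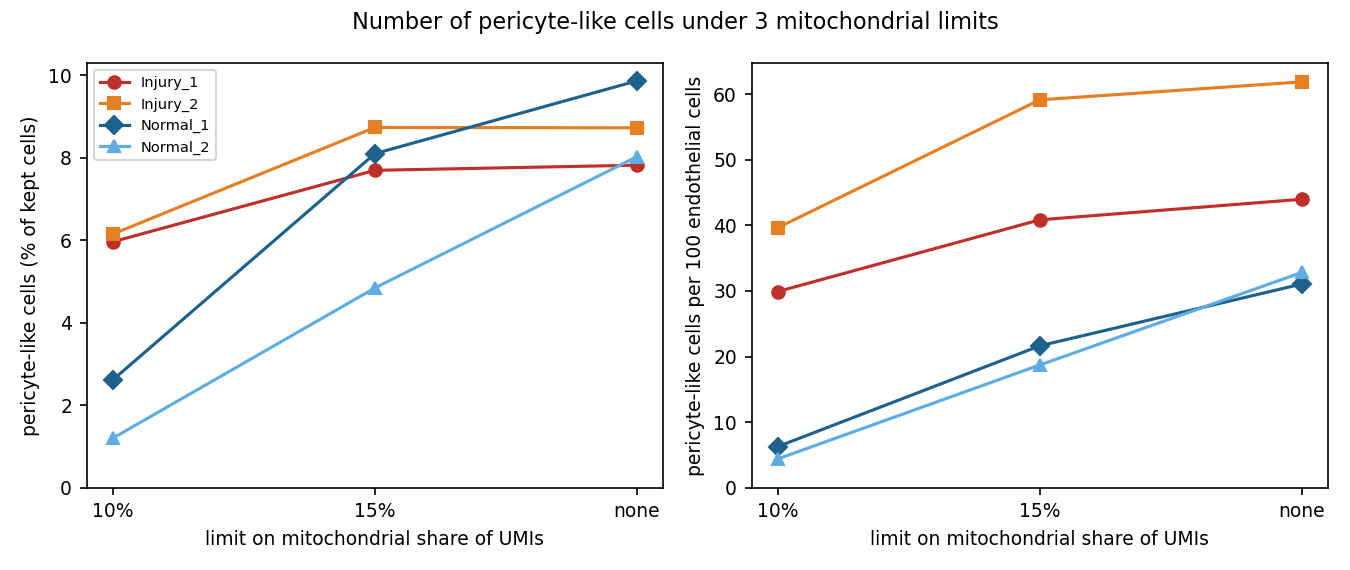
Pericyte-like cells of each rabbit as a percentage of kept cells and per 100 endothelial cells, at mitochondrial limits of 10% and 15% and with no limit. The percentage overlaps between groups at 15% (7.70% and 8.74% against 8.10% and 4.84%), whereas per 100 endothelial cells both injured rabbits (40.8 and 59.1) lie above both normal ones (21.6 and 18.7) there and at the other settings.

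Gene levels within the pericyte-like cells were then compared between injured and normal rabbits. Only ADAMDEC1 passed the adjusted threshold, and it was lower after injury. Chemokine, interferon-response and basement membrane genes mostly had higher values in both injured rabbits without passing. So did immediate early and stress genes and fibroblast markers. Of 5911 genes tested with edgeR besides those of the rule, 0 were higher (0%) and 1 was lower (0.0169%) at an adjusted p under 0.05. At an unadjusted p under 0.05 there were 306 higher (5.18%) and 226 lower (3.82%), and DESeq2 called 79 higher (1.34%) and 37 lower (0.626%). Both injured values lay above both normal values in 21.1% of genes and below them in 18.3%, the background for every count of genes without overlap that follows. The number of calls was 48 without Injury_1, 72 without Injury_2, 433 without Normal_1 and 1033 without Normal_2.

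ADAMDEC1, a secreted metalloprotease, read 1.73 and 2.10 CPM in the injured and 62.2 and 54.0 CPM in the normal rabbits. It was 29.3-fold lower after injury (log2 fold change -4.87 ± 0.35 SE, edgeR adjusted p = 0.0272). Few pericyte-like cells held a transcript of ADAMDEC1. The shares were 0.855% and 0.621% in the injured and 2.01% and 3.77% in the normal rabbits. Fibroblasts held 154, 221, 191 and 288 CPM of it, and cells with smooth muscle genes outside the rule 101 to 1266 CPM. The difference was -3.85 on the log2 scale without the cells of the highest doublet scores and -2.43 in cells with at most 1 of MYH11, ACTG2 and DES, neither of which passed. Over 14 alternatives the adjusted p ranged from 1.63e-13 to 0.32, and 9 made the call.

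The 5 genes with the smallest p among those higher after injury did not pass in edgeR. PARP14, an ADP-ribosyltransferase of the interferon response, read 97.3, 89.6, 16.3 and 13.5 CPM (log2 fold change 2.64 ± 0.27 SE, edgeR adjusted p = 0.0917). GBP1, an interferon-induced GTPase, read 797, 400.0, 71.5 and 52.6 CPM (3.27 ± 0.40, adjusted p = 0.116), and endothelial cells held 1718 to 4299 CPM of it. IGFBP5, which binds insulin-like growth factors, read 888, 752, 142 and 185 CPM (2.31 ± 0.29, adjusted p = 0.116). Each of these genes was several times higher in both injured rabbits. CYP1B1, a cytochrome P450, read 159, 158, 21.0 and 34.1 CPM (2.50 ± 0.33, adjusted p = 0.12). PCOLCE2, an enhancer of procollagen processing, read 44.5, 48.4, 5.44 and 4.97 CPM (3.14 ± 0.33, adjusted p = 0.0917). Fibroblasts held 218 to 490 CPM of PCOLCE2, the 8 fibroblast markers tested, which include it, had a median log2 difference of 1.13 in the pericyte-like cells, and their part in it was not tested.

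Among lower genes that missed the threshold, CRYAB read 1001, 559, 7081 and 3336 CPM (log2 fold change -2.72 ± 0.42 SE, edgeR adjusted p = 0.125). In fibroblasts it read 2015, 2517, 6237 and 4681 CPM, also without overlap. ARHGAP18, a GTPase-activating protein, read 19.0, 17.2, 79.3 and 51.9 CPM (-1.84 ± 0.29, adjusted p = 0.148), and ABCB1 17.3, 18.1, 59.1 and 119 CPM (-2.36 ± 0.42, adjusted p = 0.184). ATP8 read 64.0, 79.1, 330 and 187 CPM (-1.84 ± 0.32, adjusted p = 0.182), and it is a mitochondrial gene whose share entered the limit on cells.

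**Figure D4:**
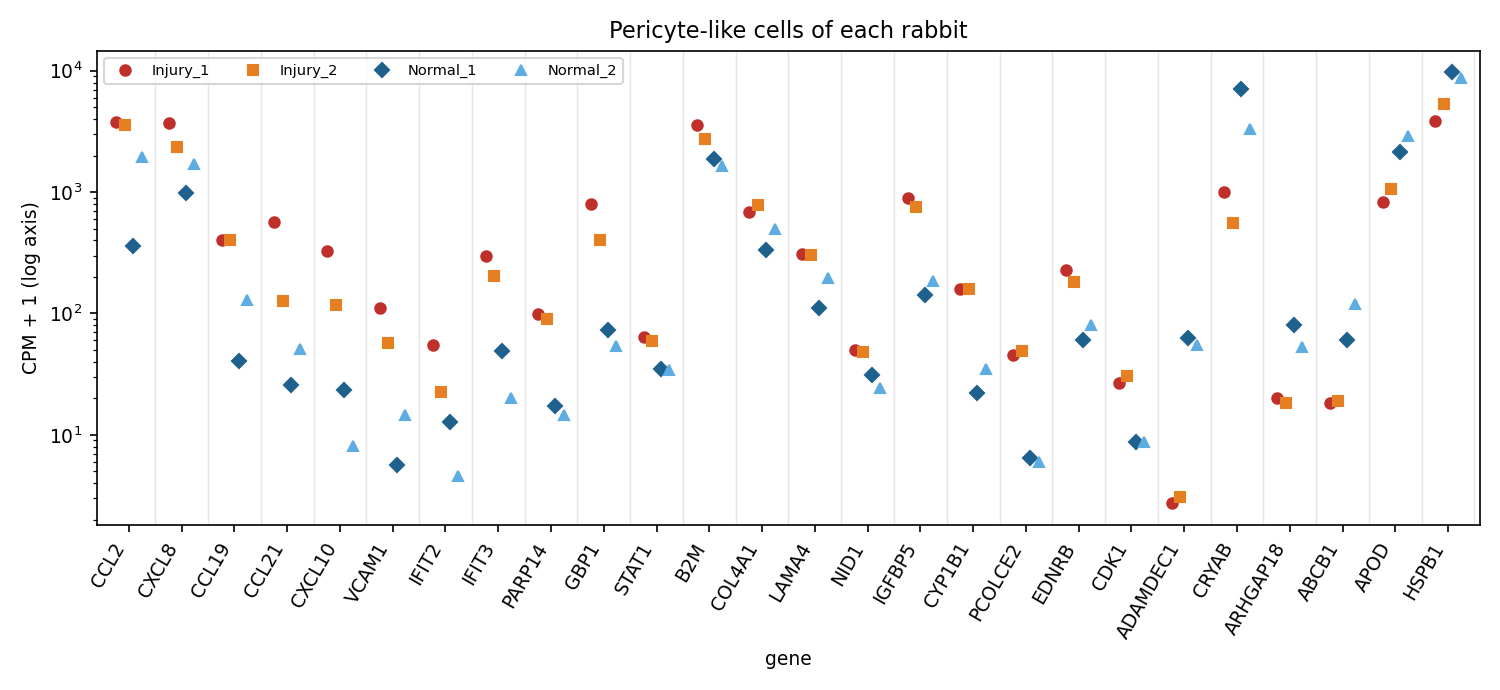
CPM + 1 on a log axis in the pericyte-like cells of the 4 rabbits (1 point each), for genes with the smallest p and genes of the lists. ADAMDEC1 reads 1.73 and 2.10 CPM in the injured and 62.2 and 54.0 CPM in the normal rabbits and was the only gene past the edgeR threshold, while PARP14, GBP1 and IGFBP5 are higher in both injured rabbits without passing it.

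Chemokines, cytokines and adhesion molecules had the largest median difference of the lists with more than 8 genes tested. Of 22 listed, 12 were in the annotation and 11 were tested, with none past the edgeR threshold. In 9 of the 11 both injured rabbits lay above both normal ones, and 0 lay below. The median log2 difference was 1.40, against -0.01 over all genes tested, and 7 had an unadjusted p under 0.05. This median was 0.83 without Normal_1 and 2.25 without Normal_2. Summed immune markers, at 61.4 and 24.8 against 10.9 and 12.1 CPM, moved the same way, and their part in these values was not tested. CXCL10, which attracts T cells, read 326, 117, 22.5 and 7.10 CPM (log2 fold change 3.92 ± 0.66 SE, edgeR adjusted p = 0.182). CCL19 and CCL21 guide lymphocytes and dendritic cells. CCL19 read 403, 399.6, 39.6 and 129 CPM (2.21 ± 0.55, adjusted p = 0.321). CCL21 read 567, 126, 24.9 and 49.7 CPM (3.18 ± 0.76, adjusted p = 0.30), and in endothelial cells 1091, 732, 0 and 63.8 CPM. VCAM1, a ligand of leukocyte integrins, read 109.8, 55.9, 4.66 and 13.5 CPM (3.14 ± 0.56, adjusted p = 0.184). The same test was run in fibroblasts and in the cells with smooth muscle genes outside the rule. Log2 fold changes there were 4.74 and 3.85 for CCL19, 1.24 and 2.34 for VCAM1, and -0.181 and 3.58 for CXCL10. CCL21 changed by 3.53 in fibroblasts. None of these passed the edgeR threshold. The cells with smooth muscle genes outside the rule numbered 54 and 89 in the injured and 101 and 742 in the normal rabbits. Among the markers tested in them, changes ran from 0.06 for COX4I2 to 4.19 for RGS5. The part of cell make-up in their injury changes, here and below, was not tested.

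CCL2, the monocyte chemokine, read 3783, 3542, 361 and 1957 CPM (log2 fold change 1.61 ± 0.72 SE, edgeR adjusted p = 0.573), with Normal_1 far below Normal_2. In Normal_2 it was concentrated in cells with at least 2 smooth muscle genes (2950.3 CPM, against 753 CPM in cells with none), while Normal_1 held 65.9 and 574 CPM. CXCL8, the neutrophil chemokine, read 3693, 2359, 974 and 1705 CPM (1.15 ± 0.37, adjusted p = 0.450). In fibroblasts the log2 fold changes of CCL2 and CXCL8 were 2.46 and 3.46. In the cells with smooth muscle genes outside the rule they were 2.52 and 0.577, and none of these passed the edgeR threshold.

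Of 20 interferon-response genes listed, 9 were in the annotation and 7 were tested. In all 7 both injured rabbits lay above both normal ones. None passed in edgeR, 6 had an unadjusted p under 0.05, and DESeq2 called 3 higher. IFIT3, an antiviral effector, read 294, 204, 48.2 and 19.2 CPM (log2 fold change 2.91 ± 0.43 SE, edgeR adjusted p = 0.123). B2M, the light chain of class I molecules, read 3586, 2730.2, 1875 and 1627 CPM (0.85 ± 0.22, adjusted p = 0.342). In endothelial cells IFIT3 read 1523, 858, 1868 and 333 CPM and in fibroblasts 46.8, 31.5, 66.8 and 7.15 CPM, so both of these overlapped between the groups. In the cells with smooth muscle genes outside the rule IFIT3 read 115, 71.0, 13.3 and 4.54 CPM, without overlap, and their log2 fold change of 3.59 did not pass (edgeR adjusted p = 0.367).

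Basement membrane genes had 8 of 12 members tested without overlap upward and 1 downward, with a median log2 difference of 0.60 and none past the edgeR threshold. The median was 0.20 without Injury_2 and 0.31 without Normal_1, and it was 0.19 in cells with at least 4 markers and 0.26 in cells with at most 1 of MYH11, ACTG2 and DES. Of the 8 fibroblast markers tested, which leave out the rule genes DCN and LUM, 5 lay without overlap upward and 1 downward, with a median of 1.13, and their part in these values was not tested. COL4A1 read 687, 787, 329.6 and 500.1 CPM (log2 fold change 0.81 ± 0.31 SE, adjusted p = 0.517). COL4A2, its partner chain, read 1384, 1317, 454 and 1060.5 CPM. LAMA2 was the member without overlap downward, at 179.9, 247, 285 and 326 CPM. Fibrillar and provisional matrix genes were divided, with 7 of 13 without overlap upward and 4 downward.

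Contractile genes showed little difference: of 15 tested, 1 lay without overlap upward and 4 downward, and the median log2 difference was -0.18. Their share of UMIs in the median pericyte-like cell was 1.07%, 1.31%, 1.05% and 1.57% (exact permutation p = 1). Among 17 vessel tone genes, 4 lay without overlap upward and 1 downward, with a median log2 difference of -0.04. Within this list EDNRB, an endothelin receptor, read 225, 182, 59.9 and 79.6 CPM and did not pass (log2 fold change 1.53 ± 0.29 SE, edgeR adjusted p = 0.184). EDNRB changed by 1.09 in fibroblasts and by 1.85 in the cells with smooth muscle genes outside the rule, also without passing. Among 14 immediate early and stress genes, 9 lay without overlap upward and 2 downward. The latter were the chaperones HSPB1, at 3844, 5322, 9709 and 8714 CPM, and HSPA8. Of the 8 cell cycle genes tested, 2 lay without overlap upward and 0 downward, with a median log2 difference of 0.28. Summed, the cell cycle list read 478.7, 441.6, 576.1 and 354.5 CPM and overlapped between the groups. Within it CDK1 read 25.9, 29.4, 7.77 and 7.81 CPM (log2 fold change 1.82 ± 0.33 SE, edgeR adjusted p = 0.184). Of the 18 genes of pericyte and endothelium signalling, 4 lay upward and 3 downward, of 8 hypoxia genes 0 and 1, and of 8 mineralisation-linked genes 3 and 3. Of 10 pericyte markers tested, 2 lay upward and 1 downward.

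The pericyte-like cells were set beside 986 cells that held at least 2 of MYH11, ACTG2 and DES but failed the marker rule, 54, 89, 101 and 742 per library. These comparison cells go against a plain smooth muscle name, since COL1A1 read 2242, 4220.3, 1003 and 9095 CPM in them, and most came from Normal_2. Both groups were chosen from these same counts, so the differences are partly set by the choice. Of 5415 genes tested besides those of the rules, with the sample as a block, edgeR called 392 higher (7.24%) and 401 lower (7.41%) in pericyte-like cells. The calls numbered 479 without Injury_1, 442 without Injury_2 and 493 without Normal_1. With the comparison cells that had under 0.5% of their UMIs in COL1A1, COL1A2 and COL3A1 (low-collagen cells) there were 379 higher and 261 lower, of which 292 were shared with the calls above. These low-collagen cells numbered 25, 32, 59 and 79 per library, so most comparison cells of Normal_2 were not among them.

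Higher in pericyte-like cells were 6 of 8 pericyte markers tested and none lower. ADGRF5, an adhesion receptor, read 332, 238, 229 and 306 CPM against 30.3, 11.1, 3.81 and 2.36 CPM (log2 fold change 5.41 ± 0.52 SE, edgeR adjusted p = 0.00063). PDGFRB read 20.2, 25.3, 15.2 and 14.7 CPM in the comparison cells (1.90 ± 0.20, adjusted p = 0.00096). EBF1, FOXS1, GJC1 and GUCY1B1 were the others called. The largest increases by the naming rule were VWA2 (6.24 ± 0.45, adjusted p = 0.000187), the eosinophil chemokine CCL11 (5.69 ± 0.49, adjusted p = 0.000411) and ADGRF5. TSPAN15, KCNK17, a potassium channel, CA2, a carbonic anhydrase, ST8SIA1, APOD, CCL21 and CCDC190 followed, at log2 fold changes of 5.16, 4.94, 4.80, 4.38, 4.25, 4.01 and 3.50. Without Normal_2 those of TSPAN15, KCNK17 and CCDC190 were 3.37, 3.19 and 2.17.

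Of 16 vessel tone genes 7 were higher and 1 lower. AGTR1 read 73.1, 81.2, 53.6 and 71.7 CPM against 16.9, 11.1, 7.61 and 5.81 CPM (log2 fold change 3.07 ± 0.27 SE, edgeR adjusted p = 0.000442). EDNRA, EDNRB, GUCY1B1, PDE3A, PRKG1 and TRPC6 were the other 6 (EDNRA at 1.97, and 1.21 without Normal_2), and the vasopressin receptor AVPR1A was the lower one (-1.85 ± 0.29, adjusted p = 0.00566). Cytokine genes were higher in 9 of 11 and lower in 1, VCAM1, with CCL2 at 3.38 ± 0.23 (adjusted p = 0.00015). Interferon-response genes were higher in 3 of 7. COL4A1 (1.12 ± 0.14) and COL4A2 (0.86 ± 0.12) were among 5 of 12 basement membrane genes called higher, with 3 lower.

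Lower in pericyte-like cells were 9 of 13 fibrillar and provisional matrix genes, with 2 higher. COL1A1 (log2 fold change -2.80 ± 0.41 SE) and FN1 (-2.60 ± 0.27) were 2 of the lower ones. Against the low-collagen cells FN1 read 0.06, and the value of 0.81 for COL1A1 there is set by the choice of those cells. The largest decreases by the naming rule were CPN1 (-6.64 ± 0.65), CALY (-6.14 ± 0.49), HHIP, an inhibitor of hedgehog signalling (-5.88 ± 0.76), ADAM23 (-5.74 ± 0.46) and WIF1, an inhibitor of WNT signalling (-5.70 ± 0.50). PTPRQ, SLC7A3, GALNT5, COL8A1 and TGFBI followed, between -5.60 and -5.30. CPN1 and, in the other direction, VWA2 rest on few transcripts, being at 0 in 3 of the 4 libraries of the lower group. HHIP read 0, 0.841, 19.4 and 19.2 CPM in pericyte-like cells against 600.1, 283, 303 and 589 CPM, and against the low-collagen cells its difference of -1.55 did not pass (adjusted p = 0.245). Of 12 contractile genes tested, 1 was higher, CALD1 (0.72 ± 0.17), and none lower, but the direction differed between libraries. Summed, the contractile list read 15720, 17400, 14950 and 20840 CPM in pericyte-like cells. In comparison cells it read 26980, 28260, 15920 and 10080 CPM, so pericyte-like cells were higher only in Normal_2. This sum includes MYH11, ACTG2 and DES, which chose the comparison cells. Mineralisation-linked genes were lower in 3 of 8 and higher in none.

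Whether injury acted differently on pericyte-like and comparison cells was tested as an interaction over 6131 genes. edgeR called 0 higher and 0 lower (0% each), with 204 (3.33%) and 223 (3.64%) at an unadjusted p under 0.05, and DESeq2 called 14 and 15. Without Normal_1 there were 480 calls and without Normal_2 53. The smallest p belonged to IGFBP5, whose injury change was larger in pericyte-like cells by 2.10 ± 0.24 (log2, SE, adjusted p = 0.0567). CYP1B1 followed at 3.53 ± 0.45 (adjusted p = 0.0751), and PTGS2, TNFAIP6 and WNT2 at 1.67, 3.86 and 4.83 (edgeR adjusted p = 0.117, 0.26 and 0.26). Over 14 alternatives PTGS2 ran from 0.079 to 2.06, TNFAIP6 from 2.50 to 6.29 and WNT2 from 2.68 to 8.75. WNT2 averaged 9.60 CPM in pericyte-like cells. In the other direction S100A4 read -1.67 ± 0.22 (adjusted p = 0.0751), though 0.03 against the low-collagen cells, the adipokine ADIPOQ -2.90 ± 0.39 (adjusted p = 0.0782), and SPARCL1, HHIP and MMRN2 -1.18, -5.15 and -3.78.

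The same test against 7578 fibroblasts, the most abundant stromal cells, covered 7488 genes. edgeR called 40 with a higher (0.534%) and 67 with a lower (0.895%) injury change in pericyte-like cells, which is a difference of changes and not of levels. The calls numbered 62 without Injury_1, 69 without Injury_2, 240 without Normal_1 and 480 without Normal_2. IGFBP5 gave the smallest p (3.48 ± 0.25 log2, adjusted p = 0.000115): fibroblasts read 1146, 1413, 2740.0 and 3153 CPM, so their injured values lay below the normal ones, where those of pericyte-like cells lay above. CXCL10 differed by 4.06 ± 0.43 (adjusted p = 0.000975), with fibroblasts at 30.0, 8.54, 45.1 and 4.23 CPM. IFIT3 (2.38 ± 0.44, adjusted p = 0.0224) and IFIT2 (2.23 ± 0.47, adjusted p = 0.0413) were the interferon list genes called.

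Of the 11 cytokine genes tested against fibroblasts, 1 was called with a higher injury change, CXCL10, and 2 with a lower one. CXCL8 differed by -2.27 ± 0.23 (edgeR adjusted p = 0.000832), with fibroblasts at 2178, 1680.2, 146 and 221 CPM. CD44, a receptor for hyaluronan, read 192, 140.5, 80.1 and 178 CPM in pericyte-like cells and 77.1, 39.7, 9.57 and 28.5 CPM in fibroblasts, and differed by -1.30 ± 0.28 (adjusted p = 0.0413). AREG, an epidermal growth factor receptor ligand, read 127, 64.4, 207 and 398 CPM in pericyte-like cells against 553, 403, 167 and 54.7 CPM in fibroblasts, a difference of -4.04 ± 0.64 (adjusted p = 0.00872). ADAMDEC1 differed by -4.63 ± 0.42 (adjusted p = 0.000566). Basement membrane, cell cycle, and immediate early and stress genes gave no call in this test, of 12, 8 and 14 tested.

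**Figure D5:**
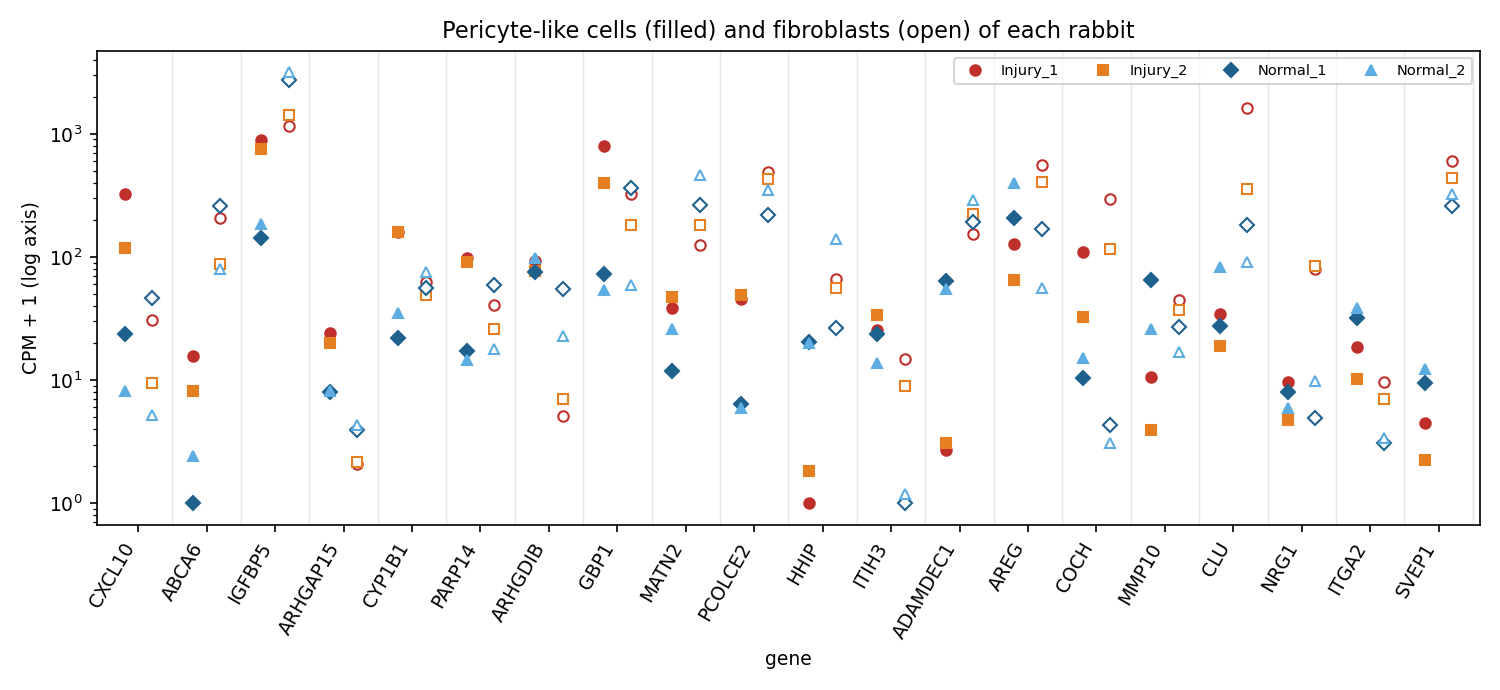
CPM + 1 on a log axis for the 20 named genes of this test in pericyte-like cells (filled points) and fibroblasts (open points), with colour and shape marking the rabbit. For IGFBP5 the injured rabbits lie above the normal ones in pericyte-like cells (888 and 752 against 142 and 185 CPM) and below them in fibroblasts (1146 and 1413 against 2740.0 and 3153 CPM).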

How the data were processed

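The deposited files hold raw UMI counts per gene and cell, which the authors made with Cell Ranger 6.0.1 from 3' libraries (1 library per sample). Seurat is also named in the submitters' processing notes, and the genome release is not given in the sources used here. The tables list 18475 genes, of which 9771 have a symbol. Cells were kept and chosen by the rule given above. The pericyte-like cells and gene lists were chosen with earlier results of these data known. UMIs were summed per sample and cell group and tested with edgeR 4.0.16 (R 4.3.3, limma 3.58.1, quasi-likelihood, low-count filter, TMM, Benjamini-Hochberg, threshold 0.05), and with DESeq2 1.42.0 as an alternative. Fits over 2 cell groups held the sample as a block. Shares were compared with two-sided exact permutation tests (scipy 1.17.1). Doublets were scored with Scrublet in scanpy 1.11.5 and kept: 5, 4, 12 and 6 pericyte-like cells of Injury_1, Injury_2, Normal_1 and Normal_2 were in the highest 5% of scores of their library. Scripts were tested on simulated counts.

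Named genes were the 10 largest increases and decreases past the threshold with at least 20 CPM in the higher group (for injury, with no overlap), filled up to 5 by p where fewer passed, and members of 17 gene lists. The samples of a group are described in the study as biological replicates. The glial marker list is not reported here.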

Additional observations from a re-analysis of the deposited data

Results flagged for a closer look

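The injury change differed between pericyte-like cells and fibroblasts by an edgeR interaction test in 20 named genes. It was higher in pericyte-like cells, on the log2 scale, by 4.06 for CXCL10, 3.95 for ABCA6, 3.48 for IGFBP5, 2.97 for ARHGAP15, 2.73 for CYP1B1, 2.67 for PARP14, 2.65 for ARHGDIB, 2.47 for GBP1, 2.46 for MATN2 and 2.40 for PCOLCE2. It was lower, with differences of -5.31 for HHIP, -5.24 for ITIH3, -4.63 for ADAMDEC1, -4.04 for AREG, -3.92 for COCH, -3.79 for MMP10, -3.77 for CLU, -3.67 for NRG1, -3.18 for ITGA2 and -2.98 for SVEP1. A lower change is not always a lower level after injury: COCH read 109.4 and 31.5 CPM in the pericyte-like cells of the injured and 9.33 and 14.2 CPM in those of the normal rabbits, while fibroblasts read 295, 114, 3.33 and 2.11 CPM. ABCA6 read 14.7, 7.15, 0 and 1.42 CPM in pericyte-like cells against 207, 86.0, 256 and 78.9 CPM in fibroblasts. With 1 library left out its difference was 1.96 without Normal_1, which did not pass (adjusted p = 0.233), and 9.91 without Normal_2. HHIP read 0, 0.841, 19.4 and 19.2 CPM in pericyte-like cells against 64.7, 55.2, 25.4 and 139.8 CPM in fibroblasts. Its difference was -4.30 without Injury_1 (edgeR adjusted p = 0.0522) and -9.93 without Injury_2. ABCA6 and HHIP were under 20 CPM in the pericyte-like cells of each library and met that minimum through the fibroblasts. NRG1 and SVEP1, at means of 6.10 and 6.16 CPM in pericyte-like cells over the 4 libraries, also met it only through the fibroblasts. Leaving out a library moved other differences too: GBP1 was 1.30 without Normal_1, and without Normal_2 CLU was -2.30 and ITIH3 -9.01.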

How the results depend on the processing

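Injured minus normal, the share of pericyte-like cells was -0.672 percentage points with no mitochondrial limit and 4.15 with a limit of 10%, and 0.115 to 3.37 with 1 library left out. Per 100 endothelial cells the difference was 20.7 to 38.9 with 1 library left out. The contractile share of UMIs turned to 0.209 with at least 4 markers, 0.10 after thinning to 2000 UMIs and 0.123 with at most 1 smooth muscle gene (-0.376 to 0.141 with 1 library left out).

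Calls between injured and normal rabbits numbered 116 with DESeq2, 0 without a count filter, 0 at the 10% limit, 0 without high doublet scores, 0 with at least 4 markers, 8 with at most 1 smooth muscle gene, 15 with no limit (chosen after seeing the data, as were the low-collagen comparison cells) and 48 to 1033 with 1 library left out, where the lone sample is assumed to vary like the others. Against comparison cells there were 414 with no sample block, 1330 without a filter, 308 at the 10% limit and 442 to 748 with 1 library left out. The interaction with comparison cells gave 29 with DESeq2, 120 without a filter, 20 at the 10% limit, 1 without high doublet scores, 2 with at most 1 smooth muscle gene, 3 with no limit, 13 with low-collagen cells and 0 to 480 with 1 library left out. The interaction with fibroblasts gave 222, 283, 30 and 67 under the first 4 of these, 59 with at least 4 markers and 62 to 480 with 1 library left out. Against low-collagen cells COL1A1 and FN1 turned to 0.81 and 0.0639 and the interaction of S100A4 to 0.0343. For COL1A1 the choice of those cells sets the turn, and for FN1 and S100A4 the cause was not tested.

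Replicate numbers showed no sign of pairing the samples (correlation of deviations -0.0227 over 5872 genes). That check rests on the difference between the replicates of each group, so it cannot exclude pairing. A replicate block gave 58 calls between injured and normal rabbits. Depth limits low genes most in Normal_1, and with 2 rabbits a group adjusted p-values rest on few degrees of freedom.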
